A study of Mus musculus with 48 samples.

Results

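Among the 32816 probes of the deposited liver expression table, 162 (0.494%) were exclusively low in mice with a whole-body deletion of *Pparα*: the highest of the 16 *Pparα*-/- arrays lay below the lowest of the other 32 arrays, and the means differed by at least 1 on the log2 scale. They carried 151 gene names, of which 11 had more than 1 such probe. Trim12a, BC049987, an unnamed transcript on chromosome 16, Camk2b and Sugct led them, with means lower by 4.21 to 5.43 log2 units, and the median over the 162 probes was 1.57. The members were chosen on the difference between the *Pparα*-/- mice and the rest, so that difference is given here as a description only, and tests are kept to the contrasts the choice did not use, namely HFD against CTRL diet within a genotype, *Pparα* hep-/- against *WT* mice, and differences between genotypes in the response to HFD.

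Livers came from 48 male mice in 6 groups of 8: *WT* (PPARaWT in the labels), *Pparα* hep-/- (PPARaLKO) and *Pparα*-/- (PPARaKO) mice, each on a control (CTRL) diet or on a high-fat diet (HFD) with 60% fat, for 12 weeks and at 20 weeks of age per the labels. The text of the study gives a shorter time on the diet. In *Pparα* hep-/- mice, a Cre recombinase under the albumin promoter removed floxed *Pparα* in hepatocytes, so the other liver cells kept the gene, whereas *Pparα*-/- mice lacked it in every tissue. According to the methods of the study, both deleted lines were bred in the study's own facility, while the *WT* C57BL/6J mice were bought from a supplier. Each genotype thus came from a line of its own, so genotype and colony cannot be told apart in any contrast between genotypes. Only contrasts with *WT* mice also set bought against home-bred mice. All mice were fed when killed.

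PPARα is a nuclear receptor that binds fatty acids and, with its partner RXR, switches on genes of fatty acid oxidation, ketone body production and lipid droplet handling. In the liver it is most abundant in hepatocytes and acts both on fasting and on a fat-rich diet. Its established targets encode enzymes of peroxisomes, mitochondria and microsomes. Of 93 table probes for 59 target genes on a list of PPARα targets, 0 were members, where the share of 0.494% over the table would give less than 1, while 23 were lower by at least 1 in *Pparα*-/- mice and the list's median difference was 0.56, against 0.01 over the whole table. The values of those 23 overlapped between the genotypes, as the rule fixes for any probe this much lower that is no member. The mice they were compared with include *Pparα* hep-/- mice, whose hepatocytes lack PPARα as well.

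The 5 probes with the largest differences are shown first, since their sequences identify exactly what was measured. They lie on the minus strand at chr7:111448499-111448558 (Trim12a), chr9:44478742-44478801 (BC049987), chr16:15217318-15217377 (ENSMUST00000091759), chr11:5869675-5869734 (Camk2b) and chr13:16949698-16949757 (Sugct) of mm9. All sequences are the array files' own, written 5′ to 3′, and exon or intron positions were not annotated on this build.
Trim12a: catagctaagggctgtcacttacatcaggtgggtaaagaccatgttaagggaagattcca
BC049987: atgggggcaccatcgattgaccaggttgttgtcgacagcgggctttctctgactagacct
ENSMUST00000091759: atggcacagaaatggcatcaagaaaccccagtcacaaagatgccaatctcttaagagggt
Camk2b: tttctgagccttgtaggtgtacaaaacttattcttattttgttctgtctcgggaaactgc
Sugct: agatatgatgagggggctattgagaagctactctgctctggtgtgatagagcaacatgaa

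Each value below is a deposited log2 signal intensity of a 60-base probe. In whole liver, fewer cells of a type and less RNA per cell cannot be told apart. Both probes of Ppara itself stayed outside the rule. The first was lower by 0.51 and the second by 0.97, with overlap, at means of 13.9 and 11.7 in *Pparα*-/- mice on CTRL diet. The study states that the hepatocyte deletion removes exon 4, and the position of these probes relative to that exon was not checked, so they are no check of the label. Hepatocyte markers were evenly high (summed level 21.2 to 21.3 in *Pparα*-/- and 21.1 to 21.4 in the other mice), and 0 probes of the 11 lists of cell type markers were members. White adipocyte markers were the list that differed most: summed levels ran from 8.10 to 8.87 in *Pparα*-/- mice and from 8.15 to 16.2 in the others, and their part in the members' values was not tested.

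The probe with the largest difference read Trim12a. This gene, a member of the tripartite motif family related to the retroviral restriction factor TRIM5, ranged from 4.60 to 5.58 (mean 5.01) in the 16 *Pparα*-/- mice and from 9.76 to 10.95 (mean 10.44) in the other 32. None of the 16 *Pparα*-/- arrays was well above background and all 32 others were, which puts the signal at least 29.8-fold higher in the latter when the dim arrays are set to the lowest measurable signal. Its second member probe was also dark in *Pparα*-/- mice (4.74 to 5.09) and ran from 6.92 to 8.36 in the rest, at least 4.33-fold higher. Trim34a, a neighbour of the same family, was measured by 2 member probes, with differences of 2.36 and 1.55, while 2 further, dimmer probes of the gene differed by 0.01 and -0.09. Xaf1, an interferon-inducible gene of apoptosis, only just met the rule, since its highest *Pparα*-/- value of 8.55 lay 0.008 below the lowest of the others. Its other probe went the opposite way, with 9.66 to 11.26 in *Pparα*-/- mice and 4.97 to 6.40 in the others, of which 4 of 32 arrays were well above background. The direction for Xaf1 thus depended on the probe. In all, 5 of the 89 table probes on the list of TRIM and interferon-stimulated genes were members (Trim12a, Trim34a and Xaf1), and the list's median difference was 0.10. Outside the list, Slfn8, of the Schlafen family that interferon induces, had a median of 5.29 in *Pparα*-/- mice and of 7.78 in the others, whose lowest value was 6.67.

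Genes of signalling and of cell division followed. Camk2b, the beta subunit of the calcium/calmodulin-dependent protein kinase II, ranged from 5.22 to 7.23 (median 5.77) in *Pparα*-/- mice and from 8.76 to 11.69 (median 10.17) in the others, and its second member probe, not well above background on any *Pparα*-/- array, was at least 1.77-fold higher in the others. By genotype that bound was 1.37-fold (CTRL) and 1.36-fold (HFD) for *WT* mice, and 2.37-fold and 2.21-fold for *Pparα* hep-/- mice. Pttg1 is securin, which holds back the protease separase until anaphase. Its brighter probe had a median of 9.65 in *Pparα*-/- mice (lowest 8.60) and ranged from 12.62 to 13.34 in the others, and the dimmer one differed by 1.68. Hjurp, a chaperone that loads the centromeric histone CENP-A, ranged from 6.50 to 7.48 and from 9.44 to 10.46. DNA repair and replication genes on the list of members were Dclre1c (the end-joining nuclease Artemis, differences of 2.23 and 1.09 for its 2 member probes, and -0.14 for another probe) and Prim2 (a primase subunit, 2.09, and -0.12 for another probe). In *Pparα*-/- mice these members lay mostly at background, with 3 and 2 of 16 arrays well above it for Dclre1c and 1 of 16 for Prim2, so their differences are measured values near the floor. The spread differed between the genes, since Camk2b varied more among the other mice and the brighter Pttg1 probe more among the *Pparα*-/- mice.

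Some members encode metabolic enzymes or transporters, picked here by their known roles. Sugct, a mitochondrial transferase that passes coenzyme A from succinate to glutarate, ranged from 5.93 to 6.56 (median 6.21) in *Pparα*-/- mice and from 9.21 to 11.16 (median 10.42) in the others. Pdhb and Dlat encode subunits of the pyruvate dehydrogenase complex, and differed by 1.87 and 1.02, while other probes of these genes differed by 0.55 and 0.03 (Pdhb) and by 0.34 (Dlat). The highest Dlat value of the *Pparα*-/- mice was 8.81 and the lowest of the others was 8.83, so that this probe barely met the rule. Sc5d, a desaturase of late cholesterol synthesis, ranged from 12.29 to 13.82 and from 14.14 to 15.45, a difference of 1.91. Another Sc5d probe was lower by 0.97 with overlap. One probe of Aldh2, the mitochondrial aldehyde dehydrogenase, was lower by 2.00, but its 3 other probes, with means of 14.9 to 17.1 in the other mice, differed by -0.20 to -0.04. Bco2, which cleaves carotenoids, was lower by 1.84. Gpd1, the cytosolic glycerol-3-phosphate dehydrogenase, was lower by 1.14, and Abcd2, a peroxisomal transporter of very long-chain fatty acids, by 1.47. A second Gpd1 probe was lower by 0.55 with overlap. In *Pparα*-/- mice Abcd2 was not well above background on any of the 16 arrays, and in the others it was on 24 of 32, which gives at least 1.95-fold. By genotype the bound was 2.19-fold (CTRL) and 3.68-fold (HFD) for *WT* mice, but 1.34-fold and 1.35-fold for *Pparα* hep-/- mice. Genes of iron handling were present as well: Ftl1, the ferritin light chain (1.18), Hfe, the haemochromatosis protein (1.03), and Slc25a37, the mitochondrial iron carrier mitoferrin (at least 2.73-fold on a probe at background in *Pparα*-/- mice, and 1.79 on the second). Other probes differed by 0.38 for Ftl1, 0.34 for Hfe, and -0.02 and 0.01 for Slc25a37. Lgals4, a sugar-binding lectin best known from the gut epithelium, ranged from 6.88 to 8.50 on its brighter probe in *Pparα*-/- mice and from 9.13 to 11.88 in the rest.

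Among the 10 members lower by at least 3 were also Taf6 (3.31), Tmem25 (3.10) and 3 transcripts that are non-coding or unnamed. BC049987, annotated as a long non-coding RNA, ranged from 5.70 to 6.77 (median 6.16) in *Pparα*-/- mice and from 9.57 to 12.22 (median 11.08) in the others. ENSMUST00000091759 held narrow groups of 6.68 to 7.23 and 11.23 to 11.83. 2610507I01Rik, also a long non-coding RNA, differed by 3.33 and 4930520O04Rik by 2.70. Matched to RefSeq, 124 of the 162 probes (76.5%) belonged to protein-coding genes, close to the 77.6% over the table, and 12 (7.41%) to long non-coding RNAs, against 4.20%. These shares are given without a test, and 23 probes matched no RefSeq gene.

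The median of the members' means was 8.86 on the log2 scale in the 32 mice and 6.86 in the 16 *Pparα*-/- mice, on either side of the 7.90 over the table. On the *Pparα*-/- arrays 87 of the members were well above background on all 16, 56 on 1 to 15, and 19 on 0. On the other arrays 157 were well above background on all 32. Within the 32 and the 16 mice the median SD of a member was 0.28 and 0.21. Averaged over all 162 members, single mice ranged from 7.67 to 7.83 in the *Pparα*-/- groups and from 9.43 to 9.64 in the other 4 groups. The rule fixes that these ranges do not meet.

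Many member genes had other probes that barely differed between the genotypes. The table held 118 further probes for 78 of the 151 gene names, with a median difference of 0.07, and 82 of them lay within 0.5 of 0 in either direction. Another 27 were lower in *Pparα*-/- mice by at least 0.5, of which 5 without overlap, and 9 were higher by at least 0.5. For 11 genes a member probe was lower by at least 2 while another probe of the gene stayed within 0.5. Uvrag, an autophagy protein of the Beclin complex, Tmc7, of a family of transmembrane channel-like proteins, and Zbtb8os, the archease cofactor of the tRNA ligase, are shown with every probe of the table, since their probes gave unlike values. For Uvrag the member lies at chr7:106127759-106127818 and the others at chr7:106035448-106035507 and chr7:106052857-106052916. For Tmc7 they lie at chr7:125679512-125679571 and chr7:125714962-125715021 (both genes on the minus strand). The Zbtb8os member spans chr4:129019055-129020411, more than its own length, and the others lie at chr4:129024269-129024328 and chr4:129024165-129024224 on the plus strand.
Uvrag, low in all *Pparα*-/- mice: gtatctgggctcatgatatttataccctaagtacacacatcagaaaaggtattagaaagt
Uvrag, second probe: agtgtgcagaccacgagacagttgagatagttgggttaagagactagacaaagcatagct
Uvrag, the third probe: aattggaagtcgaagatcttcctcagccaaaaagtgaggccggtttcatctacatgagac
Tmc7, low in all *Pparα*-/- mice: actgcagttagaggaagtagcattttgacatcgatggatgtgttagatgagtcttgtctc
Tmc7, second probe: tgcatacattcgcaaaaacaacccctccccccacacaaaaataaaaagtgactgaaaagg
Zbtb8os, low in all *Pparα*-/- mice: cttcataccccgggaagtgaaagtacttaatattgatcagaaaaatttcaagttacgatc
Zbtb8os, second probe: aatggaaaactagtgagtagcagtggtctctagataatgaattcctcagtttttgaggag
Zbtb8os, the third probe: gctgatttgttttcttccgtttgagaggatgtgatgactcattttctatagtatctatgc

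The member probe of Uvrag ranged from 5.80 to 6.54 in *Pparα*-/- mice and from 8.63 to 9.53 in the others, whereas the second ranged from 11.91 to 12.47 and from 11.48 to 12.07. On the third probe they were 7.54 to 8.33 and 7.34 to 8.26. The order of the genotypes thus depended on the probe. The member of Tmc7 ranged from 5.57 to 7.07 and from 8.01 to 10.23, and the second probe of that gene from 9.59 to 10.18 and from 9.52 to 10.34. For Zbtb8os the member differed by 2.63 and the others by 0.11 and -0.06. Taf6, a subunit of the general transcription factor TFIID, gave 3.31 and 0.37. On the third probe of Trim12a, outside the rule, *Pparα*-/- mice were lower by 1.02 with overlap.

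A run of members on chromosome 4 read major urinary protein (Mup) genes. Mups are small lipocalins that male mouse liver secretes in large amounts and that carry pheromones in urine. Mup6 ranged from 11.57 to 14.77 in *Pparα*-/- mice and from 15.40 to 16.68 in the others, Mup-ps12 from 11.80 to 14.87 and from 15.58 to 16.84, Mup20 (darcin) from 16.16 to 18.25 and from 18.59 to 18.75, and the unnamed ENSMUST00000178292 from 10.28 to 13.19 and from 13.32 to 15.16. The Mup genes are near-identical copies, so a probe may read several of them. Capitals below mark the longest run of bases that a member shares with a probe of another gene name; Mup6 shared no run of 20 bases and has none. Members lie at chr4:60019933-60019992 (Mup6, plus strand), chr4:61116915-61116974 (Mup-ps12, plus), chr4:61711407-61711466 (Mup20, minus) and chr4:60693053-60693112 (ENSMUST00000178292, plus), and their partners at chr4:61253019-61253078 (Mup17, minus), chr4:61462131-61462190 (Mup-ps16, plus) and chr4:61115734-61115793 (ENSMUST00000126217, plus).
Mup6: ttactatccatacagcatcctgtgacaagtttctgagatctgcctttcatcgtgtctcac
Mup-ps12: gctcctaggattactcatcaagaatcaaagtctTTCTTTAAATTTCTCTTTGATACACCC
Mup17, no member: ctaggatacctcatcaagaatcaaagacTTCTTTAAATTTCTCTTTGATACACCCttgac
Mup20: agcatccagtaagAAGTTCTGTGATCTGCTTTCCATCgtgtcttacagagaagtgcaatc
Mup-ps16, no member: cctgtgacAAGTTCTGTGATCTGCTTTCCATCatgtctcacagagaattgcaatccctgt
ENSMUST00000178292: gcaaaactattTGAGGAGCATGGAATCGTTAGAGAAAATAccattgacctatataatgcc
ENSMUST00000126217, no member: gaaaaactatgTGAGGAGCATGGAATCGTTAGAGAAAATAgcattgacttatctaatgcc

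Probes with much sequence in common gave unlike values. ENSMUST00000178292 and ENSMUST00000126217 share 55 of 60 bases, yet the first differed by 2.61 between the genotypes and the second by 0.21, with values of 12.12 to 15.10 in *Pparα*-/- mice that lay within the 12.07 to 15.45 of the others. Mup-ps12 and Mup17 share a run of 27 bases and differed by 2.84 and -0.02. Mup20 and Mup-ps16 share a run of 24 bases and were both lower, by 1.48 and 0.89. A second table probe of Mup6, at chr4:60016964-60017725, was higher in *Pparα*-/- mice by 0.33 with wide overlap, while further probes of Mup-ps12 and Mup20 were lower by 0.96 and 0.44 with overlap. Of the 34 table probes on the list of male-biased liver genes, which holds Mup20, 1 was a member.

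Members were unevenly spread over the genome. Of the 159 with a position, 29 were on chromosome 7 (18.2% of the placed members, against 7.43% of the placed probes of the table), 21 on chromosome 4 (13.2% against 6.53%) and 19 on chromosome 9 (11.9% against 5.41%). Chromosome 11 held 16 (10.1% against 7.77%) and chromosome 3 held 10 (6.29% against 4.79%). Chromosome 2, with 8.08% of the table's probes, held 4. In 11 places 3 or more members followed each other in steps of at most 1 Mb, and these runs held 42 members. In one of them, 43 kb of chromosome 7 (111410060 to 111452818) with Trim34a and Trim12a, all 5 table probes were lower in *Pparα*-/- mice without overlap and 4 were members. Each run starts and ends at a member, so probes beyond its ends are not counted. Just outside this one, Trim34a probes at 111396137 and 111398132 differed by 0.01 and -0.09. A Trim12a probe at 111459779 was lower by 1.02 with overlap. On chromosome 14 (26743472 to 26744332) the 3 table probes of Tmem254a and Tmem254c were all members, with differences of 1.57 to 1.63. Within the remaining runs most neighbours differed little. In the Mup run (60019933 to 61711466) the median difference of the non-members was -0.02, and around Plet1, Bco2 and Dlat on chromosome 9 (50313107 to 50445680) it was -0.09. Other runs held Acad9 to Nudt6 on chromosome 3, Sfn to Ncmap and Zbtb8os to Tmem234 on chromosome 4, Zfp672 with Guk1 on chromosome 11, and 3 further stretches of chromosome 7.

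Ppara itself lies on chromosome 15, which held 4 members (2.52% of the placed members, against 3.85% of the placed probes of the table). Abcd2, Gpd1 and Pou6f1, a POU-domain transcription factor, lay 5.34, 13.9 and 14.8 Mb from Ppara, and they were the 3 members among 851 table probes within 20 Mb, beside the share of 0.494% over the table.

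Promoters of the member genes were searched for the direct repeat to which PPARα and RXR bind. It was sought on either strand of the RefSeq promoters of GRCm38.p6 as 2 copies of AGGTCA, or of the looser AGGNCA, with 1 base between them, so that each strict match is also a loose one. Neither form occurred in the 103 member genes with a promoter, and over all genes the shares were 0.05% and 0.45%. At shares this low a set of that size would mostly hold no match, so the search cannot set the members apart from other genes.

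At the edges of the rule, Manba, Acad9 and Nudt6 were the members with the smallest differences (1.00, 1.00 and 1.01), and CB205479, Ccdc61 and Kif21a missed it at 0.99. Paqr7, Xaf1 and Dlat had the narrowest gaps (0.004, 0.008 and 0.024), while Tle6, 2810047C21Rik1 and Dnaja4 overlapped by 0.001, 0.005 and 0.005. A further 210 probes were lower by at least 1 but overlapped.

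Part of the members differed between *Pparα* hep-/- and *WT* livers, where genotype and colony cannot be told apart. Changes from here on are fitted log2 differences from limma with their standard error, adjusted over all 33323 tested probes, and a call is an adjusted p of at most 0.05. On CTRL diet 57 of 162 members differed between *Pparα* hep-/- and *WT* mice (35.2%, against 24.7% of all tested probes), 27 higher and 30 lower (11.3% and 13.4% of all). On HFD 63 did (38.9%, against 26.7%), 19 higher and 44 lower (13.3% and 13.4% of all). All 162 members had passed the filter on dim probes, 19 of them with no *Pparα*-/- array well above background. Without array weights, which let noisier arrays count less, the counts were 37 and 34, beside 16.6% and 9.74% of all probes in that fit. On both diets 19 members were lower and 13 higher in *Pparα* hep-/- mice, and 75 were called on neither. Of all tested probes 4.14% were lower and 4.05% higher on both. The median change over the members was -0.03 on CTRL diet and -0.05 on HFD, beside -0.01 and -0.02 over all tested probes.

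Tdrp, named for its role in testis development, showed the largest decrease. On CTRL diet it ranged from 10.08 to 10.62 (median 10.43) in *WT* and from 8.21 to 9.13 (median 8.78) in *Pparα* hep-/- mice, without overlap (log2 change -1.63, standard error 0.14, limma adjusted p = 6.27e-12). On HFD the change was -1.89 (standard error 0.13, limma adjusted p = 1.60e-15), lower in 8 of 8 mice, and *Pparα*-/- mice lay lower still at 6.59 to 7.90. Lgals4 was graded in the same order on both of its probes. Its brighter probe ran from 10.29 to 11.55 in *WT* and from 9.13 to 10.26 in *Pparα* hep-/- mice on CTRL diet (-1.26, limma adjusted p = 5.73e-06) and changed by -1.24 on HFD (limma adjusted p = 1.09e-06). The dimmer probe changed by -1.16 (limma adjusted p = 9.20e-06) there and by -1.33 on HFD (limma adjusted p = 9.91e-08). Abcd2 ranged from 5.64 to 8.58 (median 7.58) in *WT* and from 5.55 to 6.35 (median 5.85) in *Pparα* hep-/- mice on HFD, with overlap (-1.69, limma adjusted p = 3.11e-07). Gpd1 was lower by a smaller amount, -0.39 on CTRL diet and -0.46 on HFD (limma adjusted p = 0.0291 and 0.00377).

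A second set of members was higher in *Pparα* hep-/- livers. Camk2b ranged from 9.33 to 10.11 (median 9.69) in *WT* and from 8.84 to 11.69 (median 11.35) in *Pparα* hep-/- mice on CTRL diet (1.56, standard error 0.17, limma adjusted p = 2.06e-09), above the *WT* mean in 7 of 8 mice, and it was higher in 8 of 8 mice on HFD (1.05, limma adjusted p = 1.07e-06). Its second probe was also higher, by 0.93 and 0.65. Robo1, a receptor for Slit guidance proteins, was higher by 0.99 on HFD (limma adjusted p = 3.54e-05) and Slfn8 by 0.97 (limma adjusted p = 6.08e-06). Ncmap, named as a non-compact myelin protein, ranged from 6.94 to 8.24 in *WT* and from 8.29 to 9.23 in *Pparα* hep-/- mice on CTRL diet (1.45, limma adjusted p = 2.48e-08). Cml5 rose by 1.56 (limma adjusted p = 1.20e-06) there. Both Trim12a probes were higher on CTRL diet (0.72 and 0.66) and on HFD (0.31 and 0.41), and Xaf1 by 0.72 and 0.57. BC049987 was higher on CTRL diet (0.88) and lower on HFD (-0.66), with limma adjusted p = 0.00550 and 0.0218.

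HFD changed about as many members as probes in general. In *WT* mice 40 members changed (24.7%, against 18.7% of all tested probes), 26 up and 14 down (8.60% and 10.1% of all). With the hepatocyte deletion 42 changed (25.9%, against 20.2%), 20 up and 22 down (9.46% and 10.8% of all). With the whole-body deletion 35 changed (21.6%, against 24.8%), 19 up and 16 down (12.2% and 12.6% of all). Members at background in *Pparα*-/- mice had passed the filter only through the groups where they were high, and could show little response there. Of these 35 calls 30 were among the 87 members well above background on all 16 *Pparα*-/- arrays, 5 among the 56 on some and 0 among the 19 on none. Without array weights the counts were 25, 7 and 24 (12.6%, 3.81% and 12.1% of all probes in that fit). Medians over the members were 0.06, -0.03 and -0.01, beside -0.01, -0.01 and -0.02 over all tested probes. Called fitted changes of at least 1 numbered 2 in *WT* mice (Paqr7 and Abcd2, at 0.70 and 0.62 without array weights), 4 after whole-body deletion and 0 after hepatocyte deletion.

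In *Pparα*-/- mice the Mup members fell with HFD. Mup-ps12 ranged from 13.78 to 14.87 (median 14.15) on CTRL diet and from 11.80 to 13.14 (median 12.56) on HFD, without overlap (-1.76, standard error 0.16, limma adjusted p = 2.22e-10). Mup6 fell from a median of 14.07 to 12.76 (-1.62, limma adjusted p = 2.55e-09) and ENSMUST00000178292 from 12.63 to 11.07 (-1.56, limma adjusted p = 1.22e-07), each lower in 8 of 8 mice. Mup20 changed by -0.98 (limma adjusted p = 1.06e-07). Camk2b was also lower on HFD in these mice, at 5.22 to 5.45 against 6.09 to 7.23. None of the 8 HFD arrays was well above background and 7 of the 8 CTRL arrays were, so the decrease was at least 1.90-fold (limma adjusted p = 3.52e-06). Lgals4 rose instead, from 6.88 to 7.37 up to 7.55 to 8.50 on its brighter probe (1.00, limma adjusted p = 9.00e-05), and its dimmer probe and Plekhb2 rose by 0.79 and 0.63 (limma adjusted p = 0.000700 and 1.59e-05).

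In *WT* mice Paqr7, a membrane progestin receptor, rose on HFD from a range of 13.34 to 14.45 to one of 12.99 to 15.41 (1.05, limma adjusted p = 0.000516), and Abcd2 rose by 1.02 (limma adjusted p = 0.00388) and BC049987 by 0.88 (limma adjusted p = 0.0101). Btg3, an antiproliferative protein, fell by 0.93 on the log2 scale, Plcxd1 fell by 0.88 and Ero1lb fell by 0.78. Each of these had overlapping groups and lost its call without array weights, with adjusted p = 0.0522 for Paqr7 and 0.0640 to 0.181 for the other 5, and the changes were then smaller, at 0.70 for Paqr7, 0.62 for Abcd2 and -0.57 for Btg3. In *Pparα* hep-/- mice the brighter Lgals4 probe rose by 0.73 and Snhg3 by 0.68, and Plcxd1 fell by 0.87, Ncmap fell by 0.74 and Cml5 fell by 0.73. Of these 5, Ncmap alone kept its call without array weights.

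Whether HFD acted alike in the genotypes was tested as the difference of the diet responses. Between *Pparα*-/- and *WT* mice 30 members passed (18.5%, against 14.3% of all tested probes), 10 upward and 20 downward (6.93% and 7.42% of all), between *Pparα* hep-/- and *WT* mice 23 did (14.2%, against 10.4%), 5 upward and 18 downward (4.62% and 5.79% of all), and between *Pparα*-/- and *Pparα* hep-/- mice 14 did (8.64%, against 3.42%), 6 upward and 8 downward (2.12% and 1.30% of all). These contrasts share groups, and without array weights they gave 11, 3 and 4 (5.22%, 0.89% and 0.33% of all probes in that fit). The same floor in *Pparα*-/- mice applies: 21 of the 30 and 11 of the 14 calls were among the 87 members well above background on all 16 of their arrays. Mup-ps12 and Mup6 fell more in *Pparα*-/- mice than in either other genotype. The response of Mup-ps12 differed by -1.22 from *WT* and by -1.75 from *Pparα* hep-/- mice (limma adjusted p = 0.000687 and 1.27e-05), and that of Mup6 by -1.29 and -1.44 (limma adjusted p = 0.000474 and 0.000162). The response of Plekhb2 was above that of *WT* mice by 0.64 in *Pparα*-/- mice, and that of Pttg1, whose call was lost without array weights, above that of the hepatocyte deletion by 0.61 (limma adjusted p = 0.00376 and 0.00234). For Ncmap the response after hepatocyte deletion differed from that of *WT* mice by -1.35 (limma adjusted p = 0.000243).

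Other lists held few members, beside the share of 0.494% over the table. Of 111 table probes for xenobiotic metabolism and 51 for MHC and antigen presentation, 0 were members. Zinc finger genes supplied 5 of 643 probes (Zfp296, Zfp672, Zfp236, Zfp697 and Zbtb8os, which the list holds by its name). Of 12 probes for genes known to differ between C57BL substrains, 0 were members, and 4 were higher in *Pparα*-/- mice by at least 1.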

How the data were processed

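Liver RNA of 48 mice was hybridised to 1-colour Agilent arrays. Per the labels and file headers, the authors extracted spot intensities with Feature Extraction 10.10.1.1, with probes placed on mm9, on 6 slides and in 2 wash batches. The deposited table holds log2 values that the authors filtered, corrected for wash batch and quantile normalised, and members and levels were taken from it. For the tests, median intensities of the deposited scanner files were taken to log2 and quantile normalised, without outlier spots. They correlated with the deposited log2 values at r = 0.9994 to 0.9995 per array. Dim probes were dropped unless 4 of the 8 arrays of some group showed them well above background, which left 33323, and limma 3.58.1 fitted group means, wash batch and array weights (0.189 to 2.53), with Benjamini-Hochberg adjustment per contrast. For 194 probes, arrays lacking a value were left out of that probe's fit.

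The fit was tested on simulated data. Bounds ("at least") set arrays that were not well above background to the lowest signal measured above it and compare means over the mice named. Named members are the 20 with the largest differences, those of genes with several members, near Ppara, in runs or on lists, the 3 largest called changes in each direction and contrast, and those at the edges of the rule; the edges by gap and Vmn1r65, Prim2, Aldh2, Sc5d, Pdhb and Hfe were named after their values were seen. Members and lists were chosen with earlier results of these data known. Alternatives were other background corrections, normalisations, filters, blocks and weights. Array files gave no gene for some probes, whose transcript names are kept; RefSeq sequences and names are of GRCm38.p6. The number of arrays limits the precision. Some members are not reported here.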

Additional observations from a re-analysis of the deposited data

Results flagged for a closer look

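Among the 20 members with the largest differences and the mean over all members, 126 groups of 8 mice were examined for a sample far from the rest, and 9 were found, where chance gives about 1 in 20 groups. Mouse 6 of *WT* on CTRL diet was lowest for Sugct (9.21, next 10.24, gap of 0.764 of the range), Mup6 (15.40, next 16.14, 0.575) and ENSMUST00000178292 (13.32, next 14.46, 0.619). Mouse 1 of *Pparα* hep-/- on CTRL diet was lowest for Camk2b (8.84, next 11.04, 0.77) and Sugct (9.24, next 10.26, 0.782). Mouse 4 of *Pparα*-/- on CTRL diet was highest for Trim12a (5.58, next 5.16, 0.612), Camk2b (7.23, next 6.49, 0.647) and Tmem25 (9.94, next 9.47, 0.536). In *WT* mice on HFD, mouse 6 was highest for Trim12a (10.85, next 10.36, 0.659).

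The response to HFD differed between genotypes for these members, by the limma test of the difference itself. Without array weights 10 of these 18 lost their call: all of the first comparison but Ncmap, Btg3 and BC049987 in the second, and Ncmap, Plet1 and Pttg1 in the third. For *Pparα* hep-/- minus *WT* the differences were 0.91 for Btg3 (adjusted p = 0.0453), 0.66 for Snhg3 (adjusted p = 0.0411), 0.56 for Tle1 (adjusted p = 0.0385), -1.55 for BC049987 (adjusted p = 0.00219), -1.35 for Ncmap (adjusted p = 0.000243) and -1.08 for Cml5 (adjusted p = 0.0181). For *Pparα*-/- minus *WT* they were 1.24 for Btg3 (adjusted p = 0.00517), 0.71 for Plet1 (adjusted p = 0.0251), 0.64 for Plekhb2 (adjusted p = 0.00376), -1.29 for Mup6 (adjusted p = 0.000474), -1.22 for Mup-ps12 (adjusted p = 0.000687) and -1.15 for BC049987 (adjusted p = 0.0167). For *Pparα*-/- minus *Pparα* hep-/- they were 0.87 for Ncmap (adjusted p = 0.0177), 0.76 for Plet1 (adjusted p = 0.0256), 0.61 for Pttg1 (adjusted p = 0.00234), -1.75 for Mup-ps12 (adjusted p = 1.27e-05), -1.44 for Mup6 (adjusted p = 0.000162) and -1.40 for ENSMUST00000178292 (adjusted p = 0.00112).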

How the results depend on the processing

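The number of members stayed within 1.5 times 162 with recomputed values (161, of which 157 shared), with processed signals scaled to the 75th percentile (200, 152 shared), within each wash batch (190 and 217) or diet (214 and 242), and with any 1 array left out (160 to 175, the most without mouse 3 of *Pparα*-/- on CTRL diet); it was 282 for a difference of at least 0.5, 45 for at least 2 and 296 for any size. Runs of 3 or more members numbered 9 and 14 with steps of 0.5 and 2 Mb. Called members moved most without array weights: 25, 7 and 24 for HFD in *WT*, *Pparα* hep-/- and *Pparα*-/- mice, 37 and 34 for *Pparα* hep-/- against *WT* on CTRL diet and HFD, and 3, 11 and 4 for the response of *Pparα* hep-/- minus *WT*, *Pparα*-/- minus *WT* and *Pparα*-/- minus *Pparα* hep-/-. With no filter on dim probes the HFD count in *Pparα* hep-/- mice was 27, and the first and last of these responses gave 10 and 7. The response of *Pparα* hep-/- minus *WT* gave 13 without the wash term, 14 with slides as a block and 14 with the replicate number as a block. The causes were not tested. Replicate numbers do not pair the mice: samples of the same number had a median correlation of 0.02 over 120 pairs, with 35 above 0.1, and the replicate block left the other 7 counts within 1.5 times. Of 48 named changes under up to 10 alternatives, 478 values in all, 0 turned direction and 40 lost their call, 21 of them without array weights. All 30 named pairwise changes had the same sign within both wash batches, at least 0.4 in size in both for 26, and the smallest was 0.029 (Cml5 on HFD in *Pparα* hep-/- mice, wash batch 1).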

Other observations

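The mirrored rule, with every *Pparα*-/- mouse above all others by a mean of at least 1, held for 121 probes, fewer than the 162 low ones, and 20 of them were on chromosome 7, where 29 members lay. Without a minimum size the counts were 231 and 296.

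Probes of genes that are known to differ between C57BL substrains gave these values, named here after they were seen. Both non-overlapping probes belonged to Wdfy1, an endosomal adaptor protein, which was higher in *Pparα*-/- mice by 1.75 and 1.92, while the third probe was higher by 0.11. On the brightest probe of Nnt, the mitochondrial transhydrogenase that C57BL/6J mice lack in functional form, *Pparα*-/- mice ranged from 13.09 to 13.85, *WT* mice from 11.18 to 12.08 and *Pparα* hep-/- mice from 11.61 to 13.23. The other Nnt probes differed by 0.01 and -0.45 (the other mice minus *Pparα*-/-), and Cyfip2 had means of 6.68 in the others and 7.69 in *Pparα*-/- mice. Entpd4 went the other way, lower in *Pparα*-/- mice by 0.52, 0.59 and 0.33 on 3 probes with overlap, and the median over all 12 probes of the list was -0.05. The part of the mice's origin in any member's value was not tested.

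Of the 162 members, 8 share a run of at least 20 bases with a probe of another gene name. For Vmn1r65, a vomeronasal receptor gene, that partner was Rdh9, a hepatic retinol dehydrogenase gene, with a run of 21 bases, and Vmn1r65 was lower by 1.03 while Rdh9 was higher by 0.33.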
